A study of Sus scrofa with 11 samples.

Results

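Among the 11 liver libraries of the series, the 6 from pigs given 20 or 30 Gy fell into groups of 3 by the level of PCK1, the rate-limiting enzyme that starts gluconeogenesis from mitochondrial intermediates. Libraries with PCK1 above 500 FPKM (20Gy-1, 20Gy-3 and 30Gy-3) are called the higher PCK1 libraries, and those below 500 FPKM (20Gy-2, 30Gy-1 and 30Gy-2) the lower PCK1 libraries. FPKM is a fragment count scaled by transcript length in kilobases and by the library's mapped fragments. The members were thus chosen by a measured value, the FPKM of PCK1. PCK1 stood at 1639, 1599 and 1614 FPKM in 20Gy-1, 20Gy-3 and 30Gy-3, and at 102, 96.4 and 94.5 FPKM in 20Gy-2, 30Gy-1 and 30Gy-2. None of these 6 libraries lay between 102 and 1599 FPKM, the values nearest to the threshold on each side. The series set irradiated liver against control liver, and its title names veno-occlusive disease, a blockage of small hepatic vessels, and ferroptosis, an iron-dependent cell death. All 6 libraries carry wild-type genotype labels, were taken at day 35 after hepatic irradiation, and are labelled liver as tissue and hepatocyte as cell type. The series also holds 2 control libraries at day 0 and 3 libraries of 40 Gy at day 35, none of which took part in the split. The labels do not say which libraries come from separate pigs, how long each pig had gone without food or at what hour the liver was taken.

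PCK1 belongs to the liver genes under the control of nutrition. After a meal, insulin keeps the transcription factor FOXO1 out of the nucleus, which silences PCK1, the glucose-releasing phosphatase G6PC1 and the secreted growth factor binder IGFBP1. In fasting or stress, glucagon and adrenaline act through cyclic AMP (cAMP) and the factor CREB, and cortisol acts through the glucocorticoid receptor, to raise the same gluconeogenic genes and the enzymes that break down amino acids. Since PCK1 chose the libraries, its level is not evidence here, and because every gene was measured in the same 6 libraries, all differences between the sides are given as descriptions without a test. Each set of values follows the order 20Gy-1, 20Gy-3 and 30Gy-3 for the higher PCK1 libraries, and 20Gy-2, 30Gy-1 and 30Gy-2 for the lower.

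The libraries resembled each other by side and not by dose. Over 4806 genes with at least 5 FPKM in every library of the series, the log2 ratio between libraries of the same side had an SD across genes of 0.121 to 0.336, in 6 pairs. Between libraries of different sides it had an SD of 0.52 to 0.615, in 9 pairs. The 4 pairs with the same dose and different sides lay at 0.52 to 0.575, above every pair within a side. Some libraries were close to copies. 20Gy-3 and 30Gy-3, which carry different dose labels, differed with an SD of 0.121, and 0 of the genes differed by more than 2-fold. 30Gy-1 and 30Gy-2 differed with an SD of 0.129, and 5 genes by more than 2-fold. By contrast, 20Gy-1 and 20Gy-2, of the same dose, differed more than 2-fold at 261 genes. If each close pair came from 1 sample, the 6 libraries would hold 4 samples, 2 on each side, and any p-value below measures how libraries spread, and that spread may be technical. Whether the pairs share an animal was not tested.

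**Figure D1:**
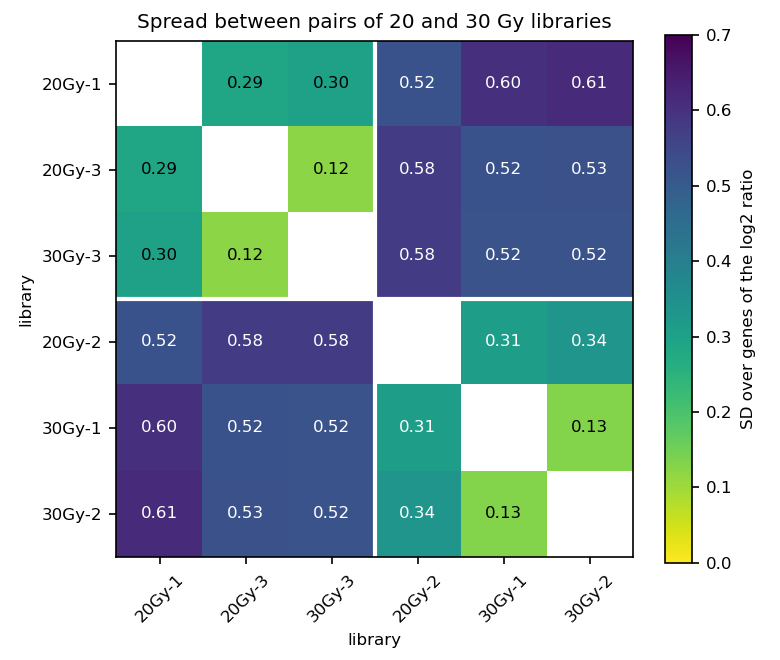
Spread between each pair of 20 and 30 Gy libraries, as the SD across genes of the log2 ratio of FPKM + 1, with the white lines parting the higher PCK1 libraries from the lower. Pairs within a side lie at 0.121 to 0.336, and pairs across the sides at 0.52 to 0.615.

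A gene was counted as separated when every library of one side exceeded every library of the other by at least 1 on the log2(FPKM + 1) scale. This distance between the nearest libraries is called the gap. Of 11644 genes tested, 223 were higher in the higher PCK1 libraries by this measure (1.92%) and 107 were lower (0.919%). These shares are the background for the gene groups below, and since the split used the same contrast, nothing is read from them. By the dose labels of the same 6 libraries, 2 genes were higher at 30 Gy than at 20 Gy (0.0172%) and 1 was lower (0.00859%). At any gap, the doses did not overlap at 1158 genes (9.95%). Each dose holds libraries of both sides, so a low count by dose follows from the split, and nothing is read from it. For the PCK1 sides, leaving out 20Gy-3 and 30Gy-3 gave 271 higher and 197 lower genes, and averaging 30Gy-1 with 30Gy-2 gave 230 and 115. The 13 genes encoded in mitochondrial DNA took 23.4 to 25.5% of the summed FPKM in the higher PCK1 libraries and 16.8 to 19.4% in the lower. A rescaling of each library left out these genes and also the abundant transcript ENSSSCG00000018076. It gave 305 higher and 56 lower genes, so that 84.5% of separated genes were higher, against 67.6% as deposited. This rescaling, chosen after the data were seen, moved the median difference of all genes from -0.06 to 0.13 on the log2 scale. Groups discussed below whose counts change with it are named as such. By list, only counts with a gap of at least 1 were recomputed, and counts at any gap were not.

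Genes that insulin represses were higher in the higher PCK1 libraries. Of 23 measured members of a list of insulin-repressed genes and FOXO1 targets, 9 were separated and higher and 0 were lower, with a median difference of 0.83 (log2) against -0.06 over all genes. At any gap, 13 were higher without overlap and 4 lower, against 22.3% and 30.1% of all genes. PCK1 itself is 1 of the 9. IGFBP1, made by hepatocytes when insulin is low, stood at 781, 714 and 706 FPKM in the higher PCK1 libraries and at 38.5, 36.1 and 32.9 FPKM in the lower. Its medians differed 19.8-fold and its nearest libraries by 4.16 on the log2 scale. The gene lies on chromosome 18, 50018487 to 50022799 (whole gene, Sscrofa11.1). IRS2, the adaptor that carries the insulin receptor's signal in liver and is itself silenced by insulin, stood at 25.1, 20.3 and 21.6 against 3.32, 2.75 and 2.75 FPKM. The groups did not overlap for either gene, and 20Gy-1 was the highest library for both.

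The other separated members of this list belong to glucose output and to growth control. G6PC1, which frees glucose from glucose 6-phosphate, was at 1009, 958 and 954 FPKM against 135, 129 and 128 FPKM, a ratio of medians of 7.45. PPARGC1A, a coactivator of the gluconeogenic genes, was at 15.9, 18.4 and 19.3 against 3.59, 3.61 and 3.84 FPKM. KLF15, a factor that drives amino acid use for glucose, was at 199, 169 and 165 against 69.4, 62.4 and 55.4 FPKM. All 3 were apart between the sides, and within a side they spread by far less than between the sides. TXNIP, which restrains glucose uptake, stood at 131, 123 and 125 against 41.1, 36.4 and 41.5 FPKM. SESN1 and CCNG2, FOXO targets linked to growth arrest, differed by gaps of 1.23 and 1.32. The list's most abundant member, APOC3, an inhibitor of triglyceride clearance, was at 13144, 13075 and 13345 against 14791, 15567 and 15262 FPKM, slightly higher in the lower PCK1 libraries.

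**Figure D2:**
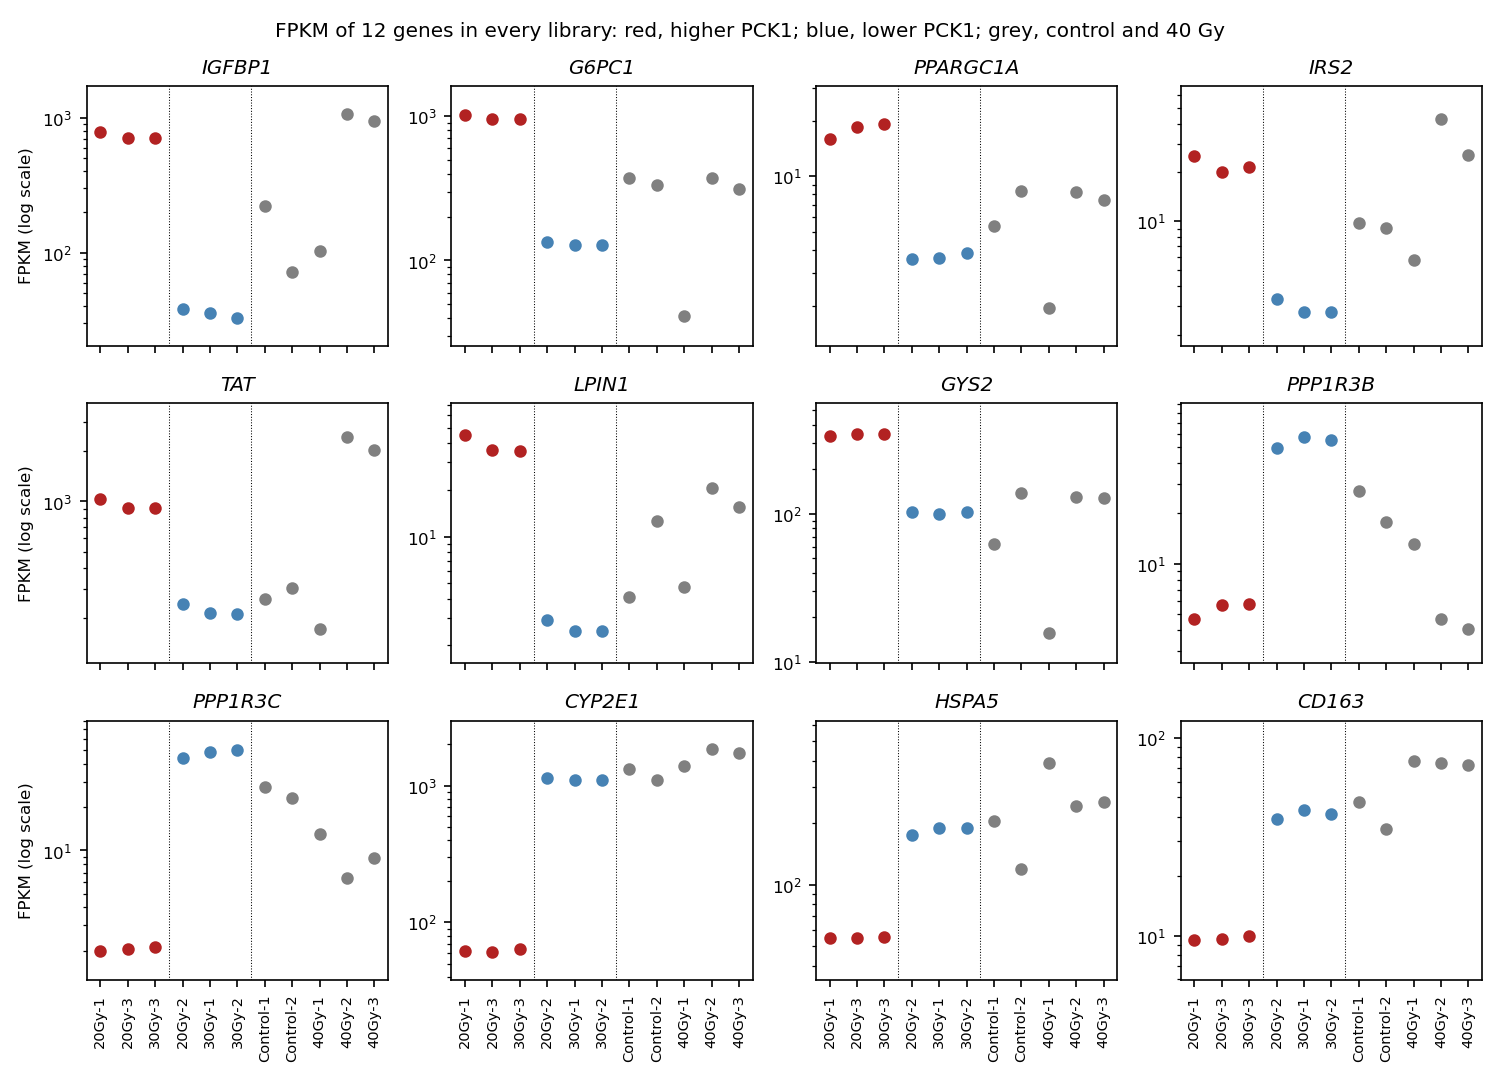
FPKM on log axes of 12 genes in each of the 11 libraries, with red points for the higher PCK1 libraries, blue for the lower, and grey for control and 40 Gy. In each panel the 3 red points lie together and apart from the 3 blue ones. Grey points lie near one side for some genes and apart from both for others.

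Gluconeogenesis as a list of 20 measured genes had 6 separated and higher members and 0 lower, with a median difference of 0.41. At any gap the list was near evenly divided, with 10 members higher without overlap and 9 lower, against 22.3% and 30.1% of all genes. Besides PCK1, G6PC1, PPARGC1A and KLF15, these were TAT and GPT2, which take amino groups from tyrosine and alanine. TAT stood at 1033, 909 and 913 FPKM in the higher PCK1 libraries and 243, 213 and 212 FPKM in the lower. SDS, the serine dehydratase, did not reach a gap of 1, at 2105, 2778 and 2838 against 1148, 1522 and 1467 FPKM, but was higher in every library of the higher side. PCK2, the mitochondrial counterpart of PCK1, was slightly lower there, at 357, 347 and 338 against 428, 403 and 386 FPKM.

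Targets of cAMP and CREB were also higher. Of 18 measured members, 9 were separated and higher and 0 lower, with a median difference of 1.31. At any gap, 12 were higher without overlap and 4 lower, against 22.3% and 30.1% of all genes. SIK1, a kinase induced by cAMP that damps the CREB response, stood at 157, 139 and 132 FPKM in the higher PCK1 libraries and 19.8, 16.6 and 13.4 FPKM in the lower. The nuclear receptor NR4A1 was at 24, 17.8 and 16.8 against 2.12, 1.47 and 1.63 FPKM, and its relative NR4A2 at 8.1, 6.85 and 8.21 against 0.52, 0.583 and 0.604 FPKM. The groups of libraries did not overlap for any of the 3 genes. Beside TAT and PPARGC1A, the other separated members were FOS, ATF3, FOSL2 and DUSP1, and these 4 belong to the immediate early genes as well. CREB3L3, a hepatocyte factor active in fasting, stood at 97.7, 96.5 and 97 against 105, 99.2 and 102 FPKM, which puts the sides next to each other.

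Of 24 measured glucocorticoid receptor targets, 8 were separated and higher and 0 lower, with a median difference of 0.93. At any gap, 16 were higher without overlap and 2 lower, against 22.3% and 30.1% of all genes. SGK1, a kinase induced by cortisol, was at 189.7, 218 and 223 FPKM in the higher PCK1 libraries and at 36.6, 39.2 and 39.4 FPKM in the lower. LPIN1, a phosphatidate phosphatase that also acts as a coactivator of fat burning and is induced by fasting, was at 44.7, 35.8 and 35.5 against 2.91, 2.49 and 2.47 FPKM, a ratio of medians of 14.3. It lies on chromosome 3, 124940557 to 125074137. DUSP1, a phosphatase that ends MAP kinase signals, was at 308, 255 and 252 against 49.8, 40.2 and 37.3 FPKM. The sides lay apart at each of these genes. The remaining separated members were TAT, IGFBP1, NFKBIA, GADD45B and the thiamine transporter SLC19A2. A pair of widely used cortisol targets, chosen after their values were seen, differed less. FKBP5, a chaperone of the receptor, was at 56, 59.7 and 62.7 against 37.5, 43 and 42.9 FPKM, and the clock gene PER1 at 153, 103 and 104 against 77.4, 54.2 and 50.9 FPKM, both without overlap. TDO2, the tryptophan dioxygenase, overlapped between the sides at 674, 729.97 and 739.7 against 709, 764 and 778 FPKM. Under quantile normalization and after rescaling, the higher genes numbered 9 and 10 for the insulin-repressed list, 8 and 8 for gluconeogenesis, 9 and 10 for cAMP and 8 and 8 for the glucocorticoid list.

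Immediate early genes, which respond within minutes to growth factors, cytokines and tissue handling, had the largest share of separated members among the lists. Of 21 measured, 11 were higher and 0 lower, with a median difference of 1.47, and the count was 11 under quantile normalization and after rescaling. MYC, a growth-promoting transcription factor, stood at 159, 108 and 106 FPKM in the higher PCK1 libraries and 7.64, 5.35 and 7.38 FPKM in the lower. FOS was at 85.6, 119 and 123 against 6.99, 9.03 and 9.8 FPKM. ZFP36, which destroys cytokine messages, was at 263, 191 and 194 against 49.9, 36.6 and 36.9 FPKM. Each of the 3 genes was apart between the sides, and MYC and ZFP36 were highest in 20Gy-1 whereas FOS was lowest there among the higher PCK1 libraries. JUNB, ATF3, DUSP1, GADD45B, IER3, FOSL2, KLF6 and DUSP6 made up the rest. JUN was at 101, 64.8 and 63.2 against 38.8, 19.7 and 22.5 FPKM and did not reach a gap of 1.

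Several genes of inflammation were among the 15 widest gaps. The chemokine CCL2, which draws monocytes, stood at 63.2, 83.4 and 84.4 FPKM in the higher PCK1 libraries and 6.27, 6.54 and 7.1 FPKM in the lower. The chemokine CCL3L1 was at 83.8, 105 and 132 against 3.51, 2.83 and 4.76 FPKM, although near-identical copies of this gene make its value uncertain. TNFAIP3, which ends NF-kB signalling, was at 31.8, 24.6 and 25.6 against 2.22, 2.2 and 1.96 FPKM. All 3 were high in every library of the higher side, and no library of the lower side came near. SOCS3, a feedback inhibitor of cytokine and insulin signals, was at 62, 53.6 and 54.5 against 9.65, 8.02 and 8.42 FPKM. Of 30 interferon-stimulated genes IRF1 and CXCL10 were separated as deposited, both higher, and 3 were after rescaling. At any gap, 19 were higher without overlap and 5 lower, against 22.3% and 30.1% of all genes, with a median difference of 0.39. IFI6, the most abundant of the 30, overlapped at 1011, 1323 and 1359 against 735, 1013 and 1024 FPKM.

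The rule for the widest gaps also named genes outside these groups. RASD1, a small G protein induced by glucocorticoids, had the widest gap of the higher genes with a symbol and at least 10 FPKM, 4.45, with 41.1, 43.4 and 36.8 FPKM against 0.733, 0.711 and 0.29 FPKM. GADD45G, a growth arrest and stress gene, was at 292, 352 and 352 against 19.5, 26.9 and 19.5 FPKM. NOCT, a phosphatase with a daily rhythm in liver, was at 129, 137 and 146 against 10.5, 14.7 and 11.7 FPKM. These genes share no list here but split the libraries in the same way. FST, the activin-binding protein follistatin that liver secretes when glucagon is high relative to insulin, was at 64.7, 56.8 and 55.4 against 5.4, 4.63 and 4.5 FPKM. The Wnt receptor FZD5 and the G protein RND1 had gaps of 2.91 and 3.16. An identifier with no symbol, ENSSSCG00000040361, chosen after its values were seen, was at 68.2, 46.8 and 56.7 FPKM in the higher PCK1 libraries and listed at 0 in the other 8 libraries of the series. Such a 0 may stand for an estimate that failed.

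Genes of glycogen and of glucose entry differed in both directions. PPP1R3C, which brings a phosphatase to glycogen and promotes its synthesis, stood at 1.98, 2.05 and 2.13 FPKM in the higher PCK1 libraries and 44.3, 48.6 and 50.4 FPKM in the lower, a ratio of medians of 23.7 in favour of the lower. It lies on chromosome 14, 103273401 to 103278757. PPP1R3B, a related targeting subunit of liver, was at 4.69, 5.64 and 5.75 against 49, 57 and 55.2 FPKM. Both genes were low in all higher PCK1 libraries and high in all lower ones. The opposite held for GYS2, the liver glycogen synthase, at 336, 344 and 348 against 103, 99.9 and 103 FPKM, and for SLC2A2, the glucose transporter of hepatocytes, at 303, 358 and 358 against 95.6, 111 and 113 FPKM. PPP1R3G, a further targeting subunit, was at 19.4, 10.7 and 6.07 against 2.02, 0.348 and 0.731 FPKM and varied most within the higher side. Of 19 glycogen genes measured, 2 were thus separated and higher and 2 lower. PYGL, the glycogen phosphorylase, overlapped at 55.7, 55 and 56.5 against 57, 57.1 and 55.8 FPKM. Of 29 genes of glycolysis and glucose entry, 1 was separated and higher, SLC2A2, and 2 were lower, the mutase PGAM1 among them. After rescaling, 2 of the 29 were higher and 2 lower.

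Lipid genes were mostly alike between the sides or differed by less than the gap. Of 30 measured genes of fat synthesis, LPIN1 and INSIG1 were separated and higher, 1 gene was lower, and the median difference was -0.26. After rescaling, 3 were higher and 1 lower. INSIG1, which holds the sterol sensor in the endoplasmic reticulum, stood at 260.03, 267 and 274 FPKM in the higher PCK1 libraries and 86.7, 88.7 and 90.6 FPKM in the lower. FASN, the fatty acid synthase, overlapped at 924, 719 and 708 against 748, 570.2 and 529.9 FPKM. SCD, the stearoyl-CoA desaturase, was lower at 150.3, 173 and 169 against 268, 296 and 302 FPKM, and PNPLA3, a lipase induced by insulin and carbohydrate, at 21.6, 15.3 and 15.5 against 54, 42.9 and 40.4 FPKM. SCD and PNPLA3 did not overlap but stayed under a gap of 1. None of 23 cholesterol genes was separated.

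Genes of fatty acid burning did not follow the gluconeogenic genes. Of 32 measured targets of PPARA, the fasting-activated fat sensor, and of fat oxidation, 1 was separated and higher and 1 lower, with a median difference of -0.09. CPT1A, the gate of fatty acid entry into mitochondria, stood at 21.7, 22.6 and 22 against 21.9, 22 and 21.4 FPKM, which overlap. After rescaling, 1 was higher and 0 were lower. FGF21, a hormone of prolonged fasting, was at 3.67, 3.16 and 2.99 against 1.39, 2.33 and 1.94 FPKM, a small difference at a low level.

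Amino acid breakdown showed single enzymes and no shift of the list as deposited. Of 38 measured genes, TAT, GPT2 and OAT were separated and higher and NAGS was lower, with a median difference of 0.07. After rescaling, 5 were higher and 1 lower. OAT, the ornithine aminotransferase, stood at 159.7, 162 and 169.6 FPKM in the higher PCK1 libraries and 65.1, 68.3 and 65.8 FPKM in the lower. NAGS, which makes the activator of the urea cycle, was at 42.1, 37.4 and 44.9 against 133, 127 and 117 FPKM. CPS1, the urea cycle's entry enzyme, overlapped at 224, 274 and 279.97 against 241, 295 and 298 FPKM. Of 25 genes of ATF4 and the integrated stress response, DDIT4, ATF3, CHAC1 and SLC38A2 were separated and higher and 0 were lower. DDIT4, an inhibitor of the growth kinase mTORC1 that glucocorticoids also induce, was at 291, 303 and 308 against 35.8, 41.2 and 43 FPKM. ASNS, the asparagine synthetase and a classical ATF4 target, overlapped at 1.43, 1.48 and 1.64 against 1.1, 1.38 and 1.5 FPKM, and the pseudokinase TRIB3 was lower at 0.465, 0.539 and 0.579 against 2.01, 1.93 and 1.92 FPKM.

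Among 19 clock genes, 3 were separated and higher, NFIL3 and NR1D2 among them, and 0 were lower. NFIL3, a repressor that also responds to insulin and cytokines, stood at 82.2, 82.5 and 86.3 against 26.8, 29.9 and 28.5 FPKM. NR1D2, a repressor of the clock loop, was at 3.73, 4.03 and 4.45 against 1.19, 1.03 and 1.31 FPKM. The output factor DBP, which has one of the widest daily swings in liver, was at 7.1, 6.36 and 4.47 against 4.33, 2.71 and 2.15 FPKM, without a gap of 1, and PER2 was at 19.6, 18.8 and 18.4 against 14.6, 13.2 and 12.6 FPKM.

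Protein-folding genes were lower in the higher PCK1 libraries, by an amount that depended on the scaling. Of 21 measured genes of the unfolded protein response, 7 were separated and lower and 0 higher, with a median difference of -0.90 as deposited. At any gap, 17 were lower without overlap and 1 higher, against 30.1% and 22.3% of all genes. The count of lower genes with a gap of at least 1 was 5 under quantile normalization and 3 after rescaling. HSPA5, the main chaperone of the endoplasmic reticulum, stood at 55, 54.6 and 55.2 FPKM in the higher PCK1 libraries and 174, 189 and 189.5 FPKM in the lower. MANF, a secreted folding-stress factor, was at 41.3, 44.5 and 40.7 against 133, 151 and 158 FPKM, and the calcium-binding chaperone CALR at 189, 183 and 184 against 412, 402 and 399.6 FPKM. The sides did not overlap at any of these 3 genes. Of 19 heat shock genes, 5 were separated and lower and 0 higher, and these counts of lower genes fell to 2 under quantile normalization and 1 after rescaling. HSPA8, the constitutive cytosolic chaperone, was at 70.7, 94 and 89.6 against 256, 324 and 328 FPKM. As given above, the mitochondrially encoded share of FPKM was higher in the same libraries. Its part in these differences was not tested beyond the rescaling, which also left out ENSSSCG00000018076.

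Some secreted and drug-metabolizing products of hepatocytes were lower as well. CYP2E1, the P450 that oxidizes ethanol and acetaminophen, had the widest gap of the lower genes, -4.08, with 62.3, 60.4 and 63.5 FPKM in the higher PCK1 libraries and 1126, 1091 and 1091 FPKM in the lower. It lies on chromosome 14, 141690737 to 141703078, and its medians differed 17.5-fold. CYP1A2, which clears caffeine, was at 19.6, 20.6 and 20.1 against 94.8, 88.2 and 87.5 FPKM, and CYP2A19 at 4.05, 4.49 and 4.11 against 58.4, 52.9 and 53.1 FPKM. Of 9 measured P450 genes of drug metabolism, these 3 were separated and lower and 0 were higher. Some P450 genes have close relatives that can share reads, which was not tested gene by gene. POR, the reductase that feeds electrons to them, overlapped at 227, 165 and 171 against 236, 175 and 172 FPKM. CYP7A1, the rate-limiting enzyme of bile acid synthesis, went the other way at 84.1, 89.2 and 89.5 against 36.6, 37.9 and 41 FPKM. CYP2E1, CYP1A2 and CYP7A1 are all typical of hepatocytes near the central vein. Of 15 measured genes of such pericentral cells, 3 were separated and lower and 2 higher, and of 17 periportal genes 2 were higher, which were PCK1 and G6PC1. After rescaling, the lower pericentral genes numbered 2, the lower P450 genes 3 and the higher periportal genes 3.

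Acute phase and IL-6 response genes were mostly lower. Of 18 measured members, 11 were lower in all 3 higher PCK1 libraries without overlap (30.1% of all genes) and 4 were higher (22.3%), with a median difference of -0.39. CRP and LBP were separated and lower by at least 1, and JUNB and SOCS3 higher, and these counts of 2 and 2 stood under quantile normalization and after rescaling. The counts of 11 and 4 without overlap were not recomputed under either. CRP, which tags bacteria and dying cells, stood at 86.9, 101 and 107 FPKM in the higher PCK1 libraries and 287, 392 and 388 FPKM in the lower, and LBP, which binds endotoxin, at 47.9, 50.0 and 51.1 against 167, 179.8 and 173 FPKM. The fibrinogen chain FGG was at 2818, 2802 and 2829 against 5599, 5582 and 5664 FPKM, just under a gap of 1. All of these were low in each higher PCK1 library.

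Markers of macrophages and red cells were among those that differed between the sides. Of 14 measured macrophage markers, 4 were separated and lower in the higher PCK1 libraries and 0 were higher, and the count of lower genes was 2 under quantile normalization and 2 after rescaling. Their FPKM summed to 364 to 379.7 in the higher PCK1 libraries and 769 to 772 in the lower. CD163, the scavenger receptor for hemoglobin on resident macrophages, stood at 9.5, 9.58 and 9.95 against 38.9, 43.2 and 41.4 FPKM, and the complement gene C1QA at 36.8, 39.6 and 38.5 against 88.9, 96.9 and 90.6 FPKM. In whole liver, fewer cells of a type and less RNA per cell cannot be told apart. No macrophage marker measured was at 0 in all 6 libraries, and the part of macrophages in the chemokine and acute phase values above was not tested. The red cell gene HBB was lower too, at 57.4, 96.5 and 88.2 against 231, 334 and 329.9 FPKM, with the erythroid markers summing to 59.4 to 99.3 against 236 to 342 FPKM. The 18 hepatocyte markers were all measured and summed to 59164 to 66266 against 73198 to 80954 FPKM, with ALB at 27264, 30180.1 and 30597 against 32222, 32564 and 35552 FPKM. No member was separated among 17 stellate, 15 endothelial, 6 neutrophil, 12 T and NK cell, 6 B and plasma cell and 6 bile duct markers, nor among 16 cell cycle genes.

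**Figure D3:**
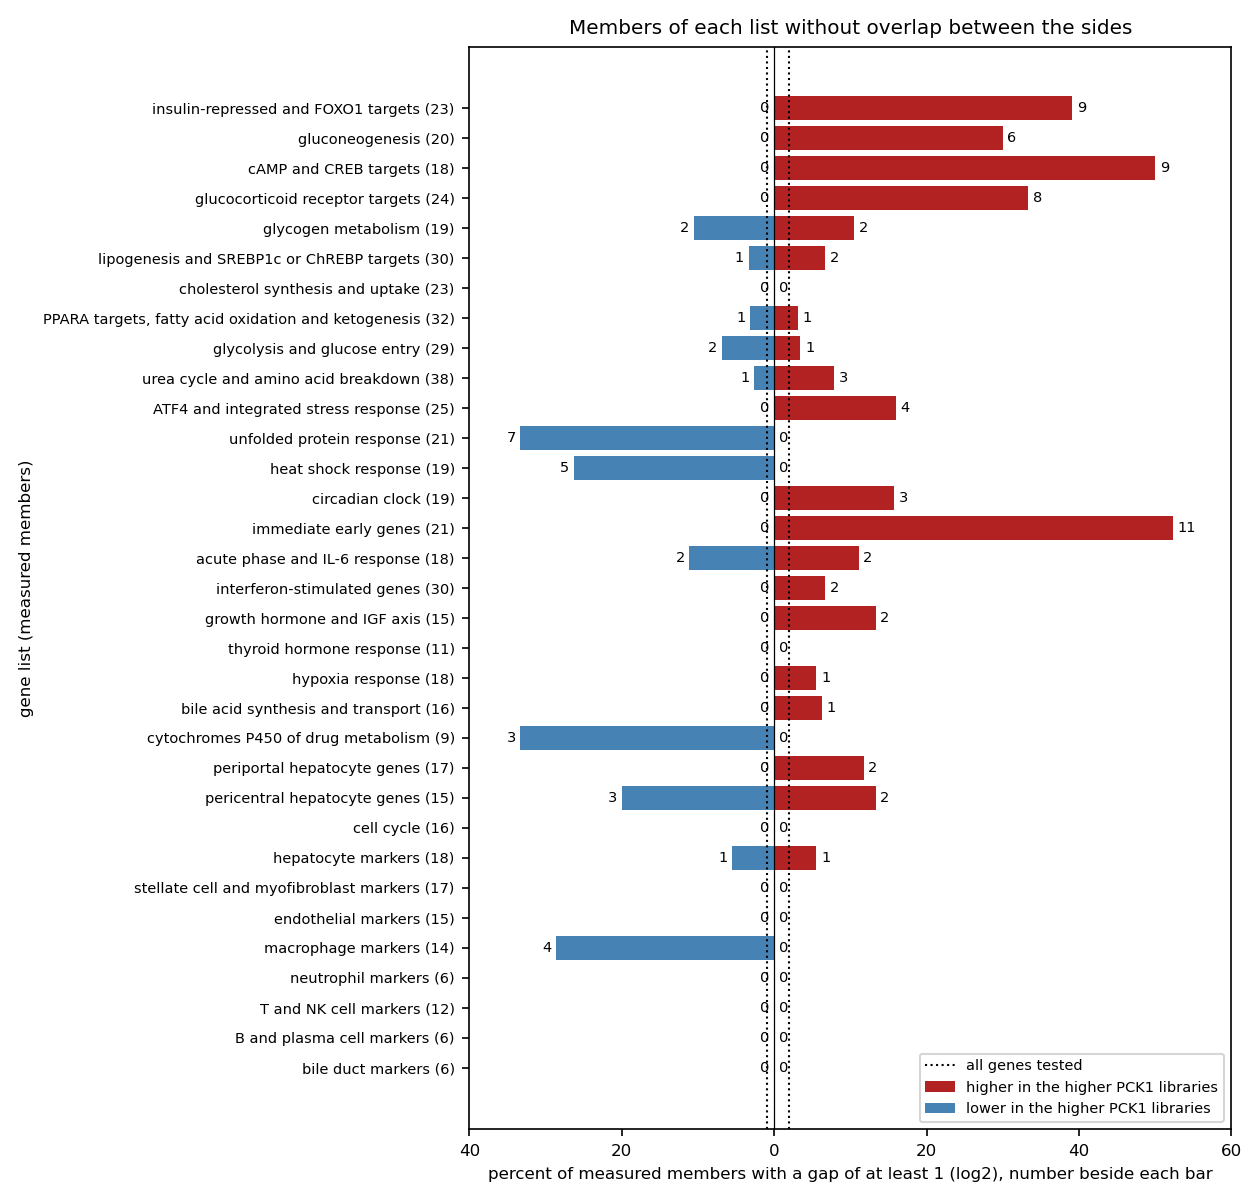
Percent of the measured members of each gene list with a gap of at least 1 between the sides, to the right where the gene is higher and to the left where it is lower in the higher PCK1 libraries, with the number of genes beside each bar. Dotted lines mark the shares over all genes tested, 1.92% and 0.919%, and the immediate early list reaches 11 of 21 whereas the unfolded protein response reaches 7 of 21 on the lower side.

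The differences were of similar size within each dose. Across the 223 higher genes, the median difference was 1.63 between 20Gy-1 and 20Gy-2, 1.64 between 20Gy-3 and 20Gy-2, 1.63 between 30Gy-3 and 30Gy-1 and 1.64 between 30Gy-3 and 30Gy-2, on the log2 scale. Across the 107 lower genes the same 4 differences were -1.45, -1.43, -1.51 and -1.49. Within a side the median range over 3 libraries was 0.19 and 0.20 for the higher genes and 0.20 and 0.17 for the lower genes. The choice of genes fixes the direction of these values, and it favours genes with little spread within a side. Together with the near-identical libraries this brings the sizes at the 2 doses close by construction, so the values are a description only.

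A smaller second pattern ran across the sides. 20Gy-1 stood apart from 20Gy-3 and 30Gy-3, and 20Gy-2 from 30Gy-1 and 30Gy-2, at many of the same genes. Over all genes tested, the 2 differences had a Pearson r of 0.54, as a description across genes, which are not independent. More than 1 log2 unit from the mean of their close pair lay 107 genes in 20Gy-1 and 150 genes in 20Gy-2, of which 36 were higher in both, 11 lower in both and 8 opposite. Of 49 ribosomal protein genes, 42 were lower in 20Gy-1 than in both of its neighbours and 41 were lower in 20Gy-2, by medians of -0.34 and -0.36. Of all genes tested, 42.5% were lower in 20Gy-1 than in both neighbours and 41% in 20Gy-2, with medians of -0.01 and 0.00. The abundant transcript ENSSSCG00000018076 was at 24468 FPKM in 20Gy-1 and 14186 in 20Gy-2, against 66449.7 to 86911 FPKM in the other 4 libraries. MYC, ZFP36 and DUSP1 were highest in 20Gy-1 and, within the lower side, in 20Gy-2. CEBPB, a factor of the acute phase, stood at 305, 149 and 141 against 141, 70.3 and 71.5 FPKM, so that 20Gy-2 lay level with the lowest of the higher PCK1 libraries.

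**Figure D4:**
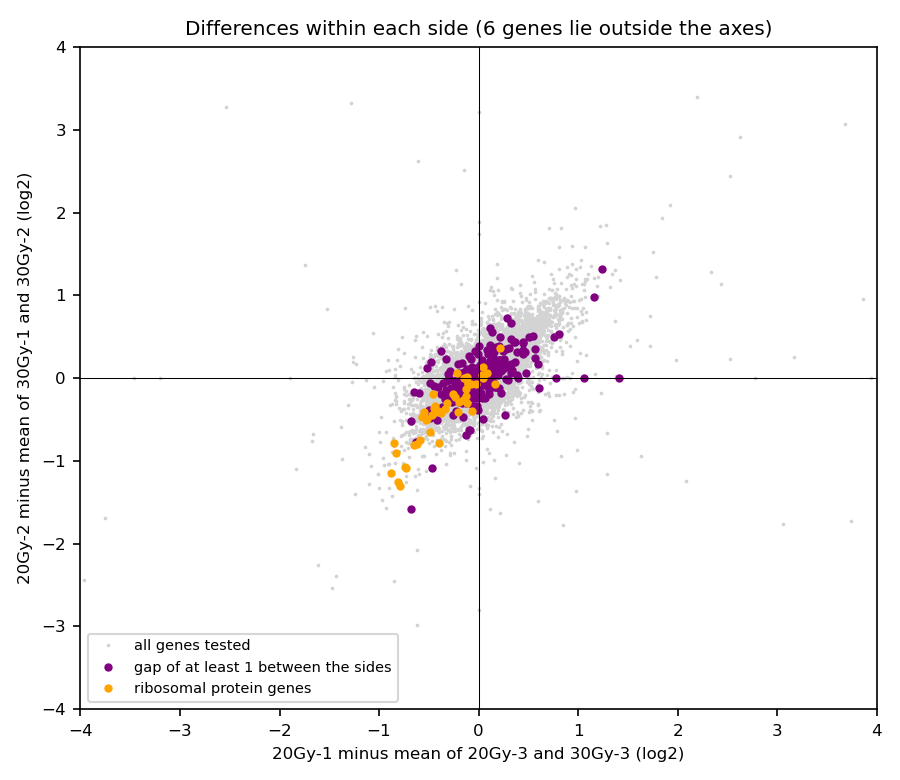
Differences inside each side on the log2(FPKM + 1) scale, with 20Gy-1 minus the mean of 20Gy-3 and 30Gy-3 on the x axis and 20Gy-2 minus the mean of 30Gy-1 and 30Gy-2 on the y axis, 1 point per gene. Ribosomal protein genes lie mostly below 0 on both axes, and genes with a gap of at least 1 between the sides are marked in purple.

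The 40 Gy libraries took no part in the split and held PCK1 at 303, 1866 and 1898 FPKM in 40Gy-1, 40Gy-2 and 40Gy-3. Of the 223 higher genes, 142 (63.7%) were higher in both 40Gy-2 and 40Gy-3 than in 40Gy-1, against 43.7% of all genes tested. Of the 107 lower genes, 76 (71.0%) were lower in both, against 41.2% of all genes. These shares describe 3 libraries, of which 40Gy-1 is alone on its side, and they carry no test. IGFBP1 was at 103, 1074 and 946 FPKM, TAT at 171, 2427 and 2026 FPKM and PPP1R3B at 13.2, 4.65 and 4.08 FPKM in the same order. For IGFBP1 and TAT 40Gy-1 lay nearer the lower PCK1 libraries and 40Gy-2 and 40Gy-3 nearer the higher, and for PPP1R3B 40Gy-1 lay between the sides and the others below both. Other genes did not follow. CYP2E1 was at 1385, 1859 and 1729.7 FPKM and CD163 at 76.3, 74.4 and 72.5 FPKM, high in all 3 libraries. CCL2 was at 32.9, 1.27 and 2.3 FPKM and TNFAIP3 at 3.17, 2.38 and 1.68 FPKM, so these inflammatory genes were not high in 40Gy-2 and 40Gy-3, where PCK1 was high. G6PC1 was at 41.2, 374 and 310.1 FPKM, which left 40Gy-1 below and the other 2 between the sides.

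**Figure D5:**
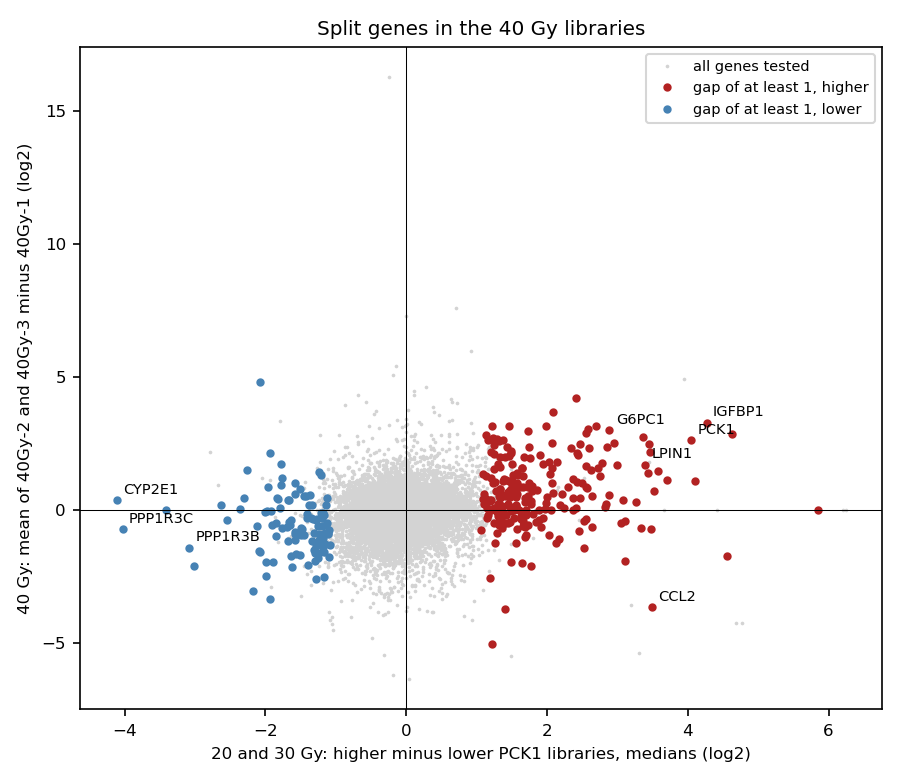
Each point is a gene, with the difference of medians between the higher and lower PCK1 libraries on the x axis and the difference of 40Gy-2 and 40Gy-3 from 40Gy-1 on the y axis, both in log2(FPKM + 1). Of the red genes 142 of 223, and of the blue genes 76 of 107, lie on the same side of 0 on both axes in both 40 Gy libraries, whereas CCL2 and CYP2E1 do not.

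Control liver did not match either side. PCK1 was at 1549.9 and 1401 FPKM in the 2 controls, just below the higher PCK1 libraries, but IGFBP1 was at 220.2 and 72.4 FPKM, IRS2 at 9.73 and 9.12 FPKM and G6PC1 at 372 and 332 FPKM, each between the sides. Of the 223 higher genes, both controls fell in the space between the sides for 80, at or below the highest of the lower PCK1 libraries for 78, and at or above the lowest of the higher PCK1 libraries for 6. Over all 11644 genes tested, these 3 counts were 532, 5736 and 6252. Of the 107 lower genes, both controls fell between the sides for 32, at or above the lowest of the lower PCK1 libraries for 23, and at or below the highest of the higher PCK1 libraries for 12. Over all genes tested, these counts were 532, 5858 and 5327. Genes chosen for a wide gap leave more space between the sides by construction, so the counts are a description only. SGK1, at 25.7 and 22.1 FPKM, and MYC, at 5.22 and 5.76 FPKM, were in the controls below or level with the lower PCK1 libraries. CYP2E1, at 1309.9 and 1092 FPKM, was level with the lower PCK1 libraries or above them.

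Tests were possible only on the labelled groups. The controls were taken at day 0 and the irradiated libraries at day 35, so irradiation and time cannot be told apart against control. The mean of the 20 and 30 Gy groups against control, fitted with limma over all 11 libraries, called 662 genes (5.69%) at a Benjamini-Hochberg adjusted p under 0.05, of which 313 (2.69%) were higher and 349 (3%) lower. The count was 274 without Control-1, 152 without Control-2, 381 without 20Gy-1, 369 without 30Gy-1, 381 without 30Gy-2 and 1808 without 40Gy-1. It was 57 when the close pair of 30 Gy was averaged and the pair 20Gy-3 and 30Gy-3 was dropped. Of the genes separated by PCK1 side, 3 of the 223 higher (1.35%) and 2 of the 107 lower (1.87%) were called. The share over all genes was 5.69%. The separated genes were chosen for a difference inside each dose group, which widens the spread that limma uses. A low count thus follows from the choice, and whether irradiation changed these genes cannot be read from it. CHAC1, which degrades glutathione and is listed among ferroptosis markers, rose by 2.47 ± 0.51 (log2 change, SE) against control, with an adjusted p of 0.0203 in limma (range 0.0089 to 0.17 over the alternatives). The call was lost without either control or without 20Gy-3 and 30Gy-3. PNPLA3 rose by 4.22 ± 0.46, with an adjusted p of 8.76e-04 in limma (range 4.65e-04 to 0.0236), and kept its call under every alternative run. All 6 irradiated libraries were above both controls for CHAC1 and PNPLA3. The contrast of 30 Gy with 20 Gy called 0 genes (0%) in limma, with 280 at an unadjusted p under 0.05, and 0 of the 330 separated genes were called. The spread within each dose that this contrast is measured against contains the PCK1 sides.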

How the data were processed

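The authors deposited 1 table of FPKM for 12505 pig genes in 11 libraries, and all 11 value columns were mapped to samples by name. HISAT2, Cufflinks and HTSeq, and the builds Sscrofa11.1 and mm10, are named without roles per the submitters' processing notes. FPKM divides by gene length and library total, depth is unknown, and the strand setting is not given in the sources, so overlapping genes, LPIN1, PPARGC1A and CYP2A19 among them, and near-identical copies are uncertain. Of the IDs, 10561 had a symbol. Coordinates come from the RefSeq gene table of Sscrofa11.1 by symbol. No sequences are shown, and some genes of the lists are not reported here by name.

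Values were analysed as log2(FPKM + 1), which understates differences of low genes, over the 11644 genes that reached 1 FPKM in 2 or more libraries. The PCK1 split was described by each library's value and by the gap, without a test. Labelled groups were compared with limma 3.58.1 in R 4.3.3 (4 group means, moderated variances with trend, 7 residual degrees of freedom, two-sided, Benjamini-Hochberg over all genes), tested on simulated data. Named genes were the markers of the split, the 15 widest gaps each way among genes with a symbol and at least 10 FPKM in every library of the side where the gene is higher, members of the 35 lists with a gap of at least 1, and up to 4 abundant members per list. Other genes named, such as FKBP5, PER1, JUN, FGF21, ASNS, TRIB3, DBP, CPT1A, CPS1 and PNPLA3, are list members or additions picked after values were seen. The members and lists were chosen with earlier results of these data known. Alternatives covered the pseudocount, the filter, quantile normalization, the gap, each library left out, the close pairs, the replicate number as a block, the groups fitted, and a rescaling added later.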

Additional observations from a re-analysis of the deposited data

How the results depend on the processing

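The gaps of the 91 separated genes named by the rule kept their direction under each alternative that could be computed for them. Their gap fell under 1 for 20 with a pseudocount of 5 FPKM, 7 under quantile normalization and 12 after rescaling. The count of higher genes was 638 at a gap of 0.5, 53 at a gap of 2, 2594 at any gap and 104 with a pseudocount of 5, and ranged from 233 to 255 with 1 library left out. The count of lower genes was 647 at a gap of 0.5, 11 at a gap of 2, 3509 at any gap, 172 with a pseudocount of 0.1, 55 with a pseudocount of 5, 197 without 20Gy-3 and 30Gy-3, 222 when 30Gy-1 and 30Gy-2 were averaged as well, and 56 after rescaling, with 114 to 151 when 1 library was left out. Fewer libraries on a side widen the gap by construction. Against control, 662 genes became 377 with 30Gy-1 and 30Gy-2 averaged, 286 without 20Gy-3 and 30Gy-3, 57 with both and 1516 with only the groups compared, and 152 to 1808 with 1 library left out. The cause was not tested. For 30 Gy against 20 Gy the 0 became 2 without 20Gy-3 and 30Gy-3, 1 with the other pair averaged too, and 0 to 3 with 1 library left out. CHAC1 also missed the threshold in limma with both pairs reduced (adjusted p of 0.17). With the replicate number as a block, limma called 592 genes against control and 0 between the doses. Deviations from each dose mean correlated across genes at -0.62, 0.65 and 0.57 between 20 and 30 Gy libraries of equal numbers 1, 2 and 3. 20Gy-1 correlated best with 30Gy-3. The sign followed the PCK1 sides, with 0.57 to 0.74 for pairs within a side and -0.81 to -0.47 for pairs across. Whether equal numbers pair libraries therefore cannot be read from these values. Depth is unknown, so no detection limit can be given, and the values describe these libraries, which would be 4 samples if each close pair came from 1.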

Other observations

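Further genes of the widest gaps belong to none of the groups described. ID1, an inhibitor of transcription factors induced by BMP signals, stood at 5.58, 5.87 and 5.3 FPKM in the higher PCK1 libraries and at 47.4, 39.5 and 32.8 FPKM in the lower. OSGIN1, an oxidative stress gene, was at 31.1, 28.9 and 26.7 against 157, 125 and 126 FPKM, and HMOX1, the heme oxygenase, at 54.5, 58 and 51.9 against 91.9, 86.2 and 81.8 FPKM. All 3 were lower in every higher PCK1 library, HMOX1 by less than a gap of 1. FABP3, a fatty acid carrier typical of muscle, was at 4.31, 3.52 and 5.27 against 24.2, 29.9 and 34.1 FPKM, and PID1, which weakens insulin signalling in fat cells, at 3.98, 4.2 and 3.92 against 24, 22.5 and 22.9 FPKM. SELENOS, a selenoprotein of the endoplasmic reticulum, was at 16.7, 17.7 and 18.4 against 63.8, 63.9 and 64.3 FPKM, while SERTAD1 and CDC42EP4 had gaps of -1.76 and -1.74.

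Endothelial markers, none of which was separated by a gap of 1, were more often lower than higher in the higher PCK1 libraries. Of 15 endothelial markers, 9 were lower in the higher PCK1 libraries without overlap (30.1% of all genes), 3 were higher (22.3%) and 3 overlapped. Their median difference was -0.37. Of 6 bile duct markers, 4 were lower, 0 higher and 2 overlapped, against the same shares of all genes, with a median of -0.62. The direction was not particular to these cells. Of 17 stellate and myofibroblast markers, 8 were lower without overlap and 2 higher, with a median of -0.35. Of 14 macrophage markers, 10 were lower and 1 higher, whereas of 12 T and NK cell markers 2 were lower and 3 higher. PLVAP, a protein of the openings of capillary endothelium, is 1 of the 9 lower endothelial markers. It stood at 36.4, 30.7 and 29.9 FPKM in the higher PCK1 libraries and 98.9, 71.1 and 70.4 FPKM in the lower. CLEC4G, a lectin of sinusoidal endothelium, was at 95.7, 79.5 and 84.5 against 65.6, 50.9 and 47.7 FPKM, and STAB1 at 20.2, 17.4 and 17.3 against 12.6, 11.7 and 10.9 FPKM, which are 2 of the 3 that were higher. SPP1, the matrix protein osteopontin, was at 19.7, 20.1 and 19.4 against 41.8, 32 and 35.2 FPKM, and the duct keratin KRT7 at 6.25, 8.08 and 8.18 against 14, 12.2 and 11.6 FPKM. No test was made, and the counts without overlap were not recomputed after rescaling. The order of the sides was the same in all 6 libraries for each of the genes named here.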
